A study of Mus musculus with 30 samples.

Results

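Chromatin accessibility was compared between naive CD4 T cells of wild-type (WT) mice and the same kind of cells after 3 days of activation. The comparison used 6 of the 30 libraries of the study, 3 naive and 3 activated, which are the WT members of its 12 libraries made by ATAC-seq, an assay in which a transposase inserts sequencing adapters into open DNA. Counts at 110808 genomic sites, listed with identical coordinates in a table of naive libraries and a table of activated libraries, were joined by chromosome, start and end and scaled to library size. Naive cells came from spleen and lymph nodes and were enriched for CD4 and sorted, and the activated cells were such cells stimulated with antibodies to CD3 and CD28. Both groups were labelled WT or control, with no allele, strain, age or sex given, and no label ties a library to an animal, so the p-values below cover only the spread among the libraries of a group, which may be technical. KO libraries of the same states, labelled as a knockout of protein kinase A (PKA) with no gene named, served only for comparison, and RNA-seq libraries of the same WT states gave a second readout. The study asks how PKA and the transcription factor CREB bear on the response to IL-12 and the Th1 fate, in which CD4 T cells make interferon gamma.

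In a naive T cell the chromatin of the quiescence and homing programme is open and that of effector genes is largely closed. Signals from the T cell receptor and CD28 switch on NFAT, AP-1 and NF-kappaB factors, which bind enhancers of cytokine and activation genes and open them. FOXO1, KLF2, TCF1 (from Tcf7) and LEF1 keep the naive state, and T-bet (from Tbx21) directs the Th1 programme.

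The DNA just before the start of 6 genes is shown because the sites there carry the main patterns described below: Gzmb, Tbx21 and Il2 opened at the start, Satb1 and Tcf7 closed, and Batf closed at its start while its other sites opened. Each sequence holds the 200 bases before a RefSeq gene start of GRCm38.p6, 5′ to 3′ on the strand of the gene, and capitals mark matches on either strand to AP-1 TGANTCA, CRE TGACGTCA, NFAT GGAAAA, ETS CCGGAAG, RUNX TGTGGTT, TCF/LEF CTTTGAT, KLF GGGTGTG or SP GGGCGG.
Gzmb: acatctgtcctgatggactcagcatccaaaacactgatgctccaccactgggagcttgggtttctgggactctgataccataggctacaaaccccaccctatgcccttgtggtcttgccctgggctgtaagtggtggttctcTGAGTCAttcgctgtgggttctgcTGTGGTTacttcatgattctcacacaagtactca
Tbx21: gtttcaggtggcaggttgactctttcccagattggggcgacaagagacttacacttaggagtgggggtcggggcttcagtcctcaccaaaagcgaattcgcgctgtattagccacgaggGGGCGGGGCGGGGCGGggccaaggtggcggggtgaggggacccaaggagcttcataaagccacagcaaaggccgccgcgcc
Il2: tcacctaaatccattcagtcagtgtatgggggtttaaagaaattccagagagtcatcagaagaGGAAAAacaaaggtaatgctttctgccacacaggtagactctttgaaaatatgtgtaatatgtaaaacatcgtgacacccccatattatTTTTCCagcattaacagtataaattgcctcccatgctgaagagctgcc
Satb1: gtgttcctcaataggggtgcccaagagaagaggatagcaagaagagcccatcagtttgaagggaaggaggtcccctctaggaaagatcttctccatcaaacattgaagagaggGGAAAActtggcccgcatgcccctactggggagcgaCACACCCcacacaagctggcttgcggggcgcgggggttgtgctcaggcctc
Tcf7: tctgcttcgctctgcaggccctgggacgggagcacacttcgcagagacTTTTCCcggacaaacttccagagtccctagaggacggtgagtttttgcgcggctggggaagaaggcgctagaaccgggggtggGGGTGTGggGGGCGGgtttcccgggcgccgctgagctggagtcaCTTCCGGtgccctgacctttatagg
Batf: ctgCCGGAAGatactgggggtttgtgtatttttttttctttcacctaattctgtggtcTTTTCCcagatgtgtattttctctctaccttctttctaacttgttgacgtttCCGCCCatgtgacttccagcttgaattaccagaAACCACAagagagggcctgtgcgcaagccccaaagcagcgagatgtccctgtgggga
They lie at chr14:56262335-56262534, minus strand (Gzmb), chr11:97115332-97115531, minus strand (Tbx21), chr3:37125955-37126154, minus strand (Il2), chr17:51833291-51833490, minus strand (Satb1), chr11:52282596-52282795, minus strand (Tcf7) and chr12:85686520-85686719, plus strand (Batf). The Gzmb window held an AP-1 match 58 bases and a RUNX match 34 bases before the start. The Il2 window held NFAT matches 137 and 48 bases before the start, and the Tbx21 window held 3 SP matches that overlap, the first of them 81 bases before it. A match is a description of the letters and does not show that a factor binds there.

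Activation changed the accessibility of most sites. Of 110134 sites tested, 65569 (59.5%) were more accessible in activated cells and 31983 (29.0%) less accessible at an adjusted p under 0.05, by edgeR's quasi-likelihood test with Benjamini-Hochberg adjustment, here called opened and closed. Because 88.6% of sites passed, the size of a change carries more than the call. Opening of at least 2-fold was found at 56040 sites (50.9%) and closing of at least 2-fold at 19988 (18.1%), while 34049 (30.9%) opened at least 8-fold and 6197 (5.63%) closed at least 8-fold. At 38998 sites (35.4%) the naive mean was below 0.5 CPM (counts scaled to a common total of counts in sites for every library), against 5567 sites (5.05%) for the activated mean. Both means were below that level at 23 of the sites tested; how the authors chose the sites they listed is not given in the sources used here. Opened sites were 67.2% of the called sites with library-size scaling and 58.0% (56771 opened, 41081 closed) with TMM scaling, which moved the median log2 fold change of all sites from 1.07 to 0.58. In bulk libraries a larger share of cells with an open site and a more open site in each cell cannot be told apart, and neither can activation and the table, since each state came in a table of its own.

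**Figure D1:**
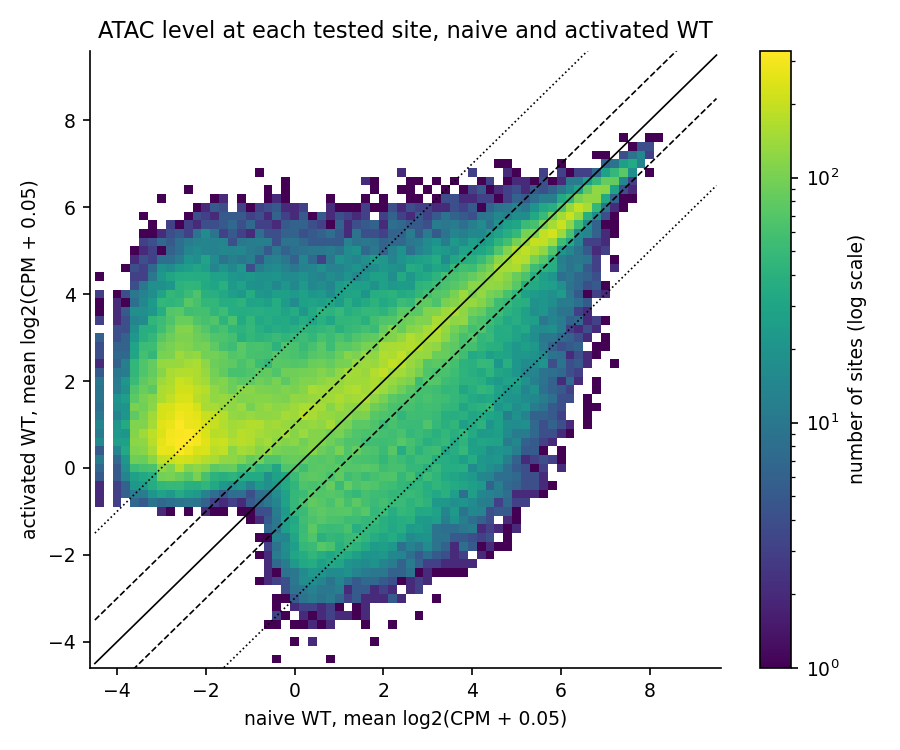
Number of tested sites at each pair of naive (x) and activated (y) WT levels, both as the mean over 3 libraries of CPM on a log2 scale with 0.05 added; the colour is a log scale of the number of sites. Solid, dashed and dotted lines mark no change, 2-fold and 8-fold; a dense group of sites near 0 in naive cells lies above the upper dotted line, and sites high in naive cells spread below the solid line.

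Libraries of a state resembled each other and stood apart from the other state. Counts in sites ranged from 18522373 to 23851428 in naive and from 21680426 to 25318916 in activated libraries. Sites with 0 counts were 6.85%, 6.33% and 1.08% of all in naive replicates 1, 2 and 3, and 0.0343% to 0.0623% in activated libraries. Naive replicate 3 had the fewest counts, and the reason for its low share of sites at 0 was not tested. Spearman correlations across sites were 0.965 to 0.979 among naive, 0.971 to 0.986 among activated and 0.383 to 0.406 between naive and activated libraries. The most accessible 10% of sites held 64.4% to 65.9% of the counts of naive libraries and 52.0% to 52.4% of activated ones, so naive counts were concentrated in fewer sites. Summed over the 175 sites within 10 kb of 13 T cell marker genes, accessibility was 3342 to 3375 CPM in naive and 2587 to 2813 CPM in activated libraries, and their RNA was 8103 to 8264 and 4643 to 4743 CPM. RNA of myeloid markers, 12 genes, was 9.31 to 11.9 CPM in naive and 0.190 to 0.465 CPM in activated libraries, nearly all of it Itgam (9.58 ± 1.45 CPM in naive cells), with Cd14, Elane and S100a8 at 0. RNA of 10 B cell markers summed to 301 to 320 and 106 to 132 CPM, of which Ighm gave 309 ± 10.7 and 116 ± 12.2 (SD, n = 3). The 8 NK and CD8 markers went the other way, with RNA of 36.8 to 42.6 CPM in naive and 178 to 256 CPM in activated libraries. Eomes rose from 5.45 ± 1.91 to 169 ± 20.1 CPM and Klrk1 from 0.239 ± 0.207 to 28.1 ± 22.1 CPM. Cd8b1 fell from 23.1 ± 0.328 to 7.22 ± 2.38 CPM and Klrd1 from 10.4 ± 3.55 to 0.217 ± 0.143 CPM. The part of such cells in the results was not tested.

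Opening was more frequent away from gene starts. Within 1 kb of a RefSeq gene start, 25.6% of 13332 sites opened and 6.33% closed at least 2-fold, and the median log2 fold change was -0.06. Among the 93443 sites farther away, 54.4% opened and 19.8% closed at least 2-fold, with a median of 1.38. The share that opened was 51.9% at 1 to 10 kb, 53.9% at 10 to 50 kb and 58.2% beyond 50 kb. Sites near starts were also the more accessible ones in naive cells, with a median of 19.3 CPM against 1.17 CPM farther away, and across quintiles of mean level the median log2 fold change fell from 2.85 in the lowest to -0.27 in the highest. Counting sites within 2 kb as near a start turned the median from -0.06 to 0.04, and with TMM it was -0.56 near starts and 0.88 elsewhere.

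Groups of genes differed in how their surrounding sites moved. The cytokine and chemokine genes had the largest median log2 fold change among the 22 lists, 2.72, with 76 of 113 sites within 10 kb opened at least 2-fold (67.3%) and 9 closed (7.96%), against 50.9% and 18.1% of all sites. Genes of the naive and quiescence programme had the lowest, -0.37, with 165 of 549 sites opened and 185 closed at least 2-fold (33.7%). The medians stood above that of all sites, 1.07, in 4 lists. The cytokine list and B cell markers (2.46, with 46 of 70 sites opened at least 2-fold) were among them. So were NFAT and NF-kappaB genes (1.35, 101 of 189) and NK and CD8 markers (1.17, 18 of 36). The opened share was 53.4% for NFAT and NF-kappaB genes. For NK and CD8 markers it was just below that of all sites, and their closed share was 33.3%. Within 50 kb the medians of NFAT and NF-kappaB genes (0.87) and NK and CD8 markers (0.46) were below 1.07. Those of the cytokine list (2.09) and B cell markers (1.59) stayed above it. The lists also differed in site level, with which fold change fell across all sites. Median naive levels were 0.720 CPM for B cell markers, 1.01 CPM for the cytokine list and 2.37 CPM for NFAT and NF-kappaB genes. They were 5.14 to 11.5 CPM in the lists with a median below 0. The orders were not the same throughout, as regulators of other T helper lineages had 1.74 CPM and a median of 0.66. The part of level in the ranking of lists was not tested.

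Between these ends lay the lists of activation, metabolism and growth. Cholesterol and lipid synthesis genes had a median of 1.05, with 64 of 127 sites opened and 13 closed at least 2-fold. Glycolysis genes had a median of 1.02 (66 and 16 of 132), and activation and costimulatory receptors 0.99 (95 and 31 of 191). Th1 and effector genes stood at 0.80 (85 and 37 of 184), the AP-1 and BATF family at 0.75 (82 and 25 of 176) and the cAMP and CREB axis at 0.70 (185 and 76 of 396). Cell cycle genes stood at 0.62 (58 and 13 of 136), although RNA of 29 of 30 of them rose. The medians were 0.78 (33 and 8 of 78) for NR4A and EGR factors, 0.66 (83 and 37 of 186) for regulators of other T helper lineages, 0.53 (95 and 52 of 219) for IL-2 and STAT5 targets, which was -0.08 with RLE scaling, and 0.77 (4 and 2 of 13) for erythroid markers. Medians were below 0 for genes of T cell receptor signalling (-0.10, 143 opened and 117 closed of 444), T cell markers (-0.20, 38 and 51 of 175) and homing and chemokine receptors (-0.26, 50 and 55 of 158). Interleukin receptor chains (0.16), ribosomal protein genes (0.14) and myeloid markers (0.05) were just above 0, and with TMM their medians were -0.33, -0.36 and -0.45. RNA gave the background of 41.6% of tested genes higher and 39.7% lower after activation, by edgeR at an adjusted p under 0.05. Against it, RNA rose for 14 and fell for 1 of 15 tested cytokine and chemokine genes. Of the 25 genes of that list, 15 passed the filter on low RNA counts. Those silent in naive cells could pass only through their activated level, which leaves a rise as the only outcome. RNA rose for 22 of 22 cholesterol and lipid synthesis genes and 18 of 18 glycolysis genes. It fell for 20 and rose for 2 of 24 naive and quiescence genes.

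**Figure D2:**
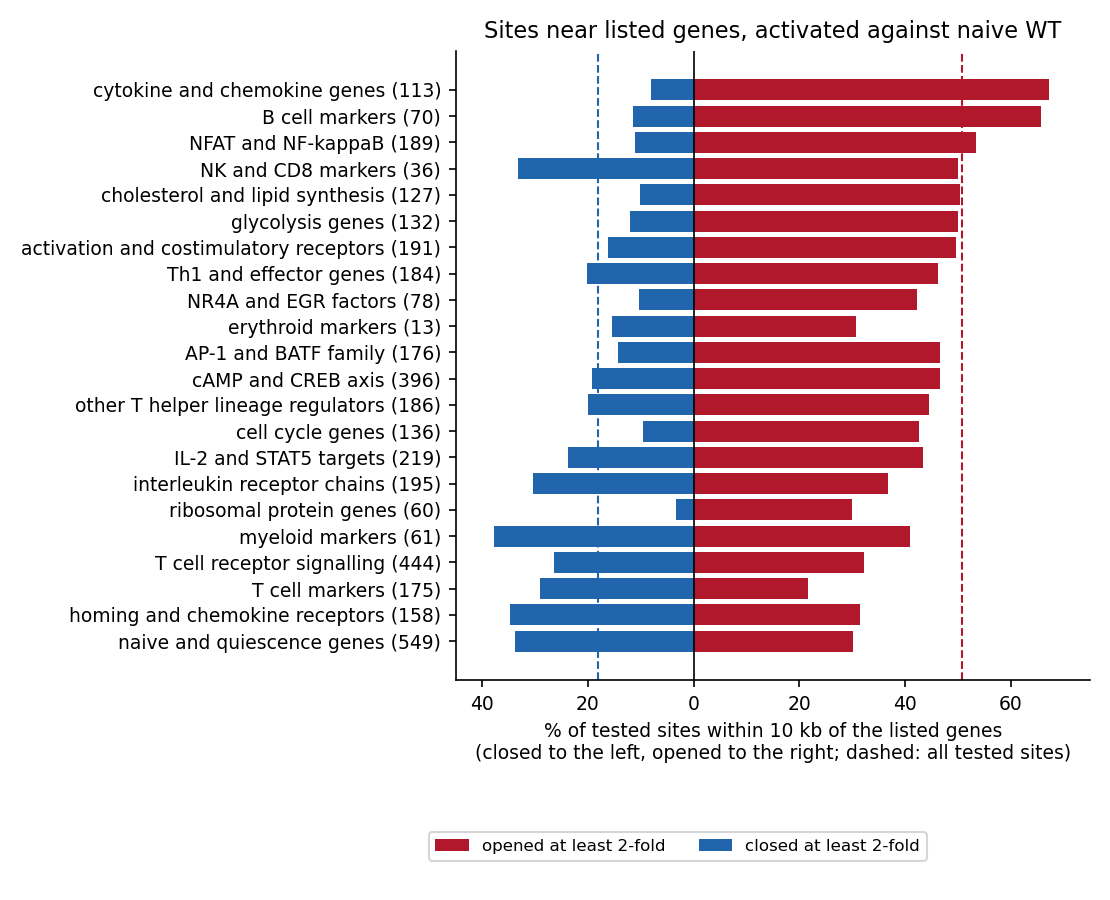
Share of tested sites within 10 kb of the genes of each list (number of sites in parentheses) that opened (red, to the right) or closed (blue, to the left) at least 2-fold, in percent; dashed lines mark 50.9% and 18.1% of all sites. Lists are ordered by their median log2 fold change, with cytokine and chemokine genes at the top and naive and quiescence genes at the bottom.

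A set of 26 T cell genes was followed site by site. They had 448 tested sites within 10 kb of their spans, of which 164 opened and 132 closed at least 2-fold, with a median log2 fold change of 0.11 (-0.39 with TMM). Of these genes, 20 (76.9%) had at least 1 site opened and 1 closed at least 2-fold, against 31.4% of all protein-coding genes and 56.2% of the 8279 with 5 or more tested sites, and the median was 11.5 sites for the 26 genes and 4.00 for protein-coding genes. Among changes of at least 2-fold, Il2, Ifng, Gzmb and Tbx21 had opened sites only, and S1pr1 and Satb1 closed sites only. At Satb1, 4 sites opened by less than 2-fold. The site with the smallest p at each gene had an adjusted p between 2.61e-15 and 3.93e-10 (edgeR), and the naive and activated libraries did not overlap there, as at 99099 (90.0%) of all tested sites.

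**Figure D3:**
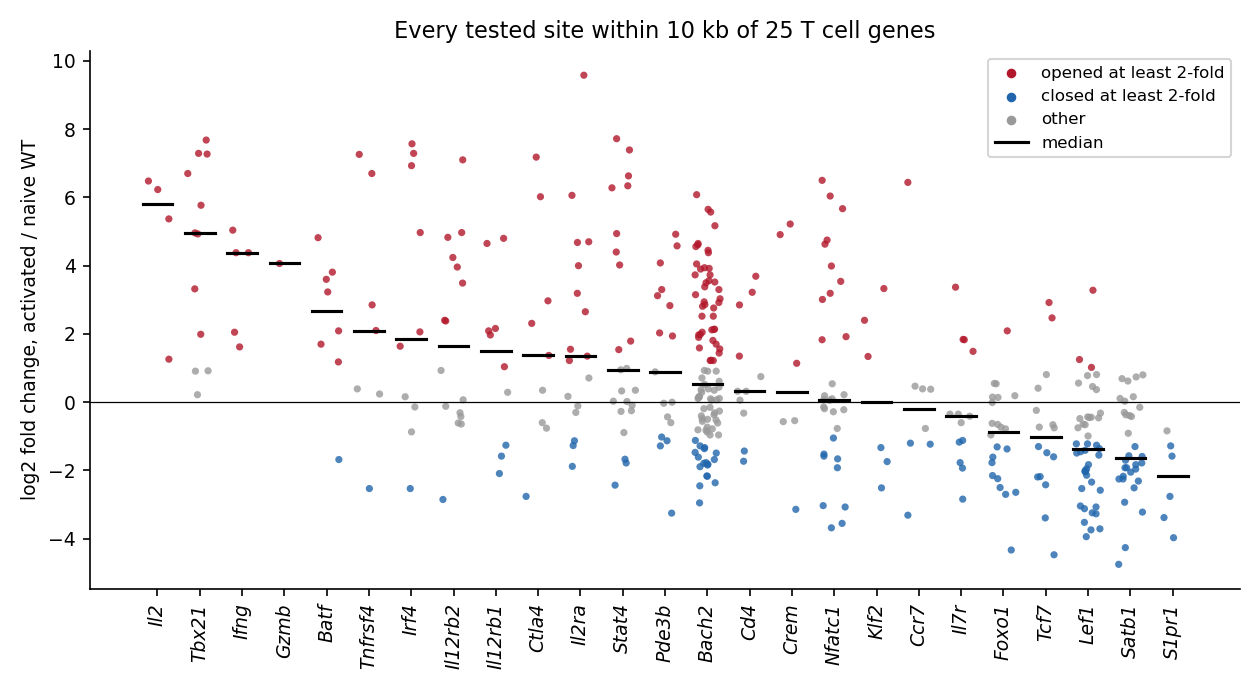
Log2 fold change (activated over naive WT) of every tested site within 10 kb of 25 of the 26 T cell genes, ordered by the gene's median (black line); each point is a site, red opened and blue closed at least 2-fold, and the sideways scatter has no meaning. Il2, Tbx21, Ifng and Gzmb have no blue point, S1pr1 and Satb1 no red point, and most other genes have both.

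At Il2, Ifng, Gzmb and Tbx21, every site that changed by at least 2-fold opened. Il2, which encodes the T cell growth factor interleukin 2, had 4 sites, all opened at least 2-fold. The one 2513 bp before its start (chr3:37128267-37128667) was at 0.645, 0.545 and 0.432 CPM in the naive libraries and 52.8, 48.2 and 47.0 CPM in the activated ones, a log2 fold change of 6.48 ± 0.12 (SE). The Il2 site over the start shown above was open before activation, at 9.44 ± 0.849 CPM, and rose to 22.7 ± 3.51 CPM (log2 1.26 ± 0.12), so the start changed far less than the upstream site. A site 8358 bp before the start rose from 0.122 ± 0.176 to 4.70 ± 2.37 CPM and one 5795 bp after it from 0.0889 ± 0.0378 to 7.28 ± 2.30 CPM. Il2 RNA was 0.0403 ± 0.0698 CPM in naive and 309 ± 27.3 CPM in activated cells.

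Ifng, the gene of interferon gamma, had 5 sites, all opened at least 2-fold and all low. The Ifng site with the smallest p, inside the gene 2098 bp after its start (chr10:118442944-118443344), was at 0.344, 0.168 and 0.486 CPM in naive and 7.27, 6.95 and 6.13 CPM in activated libraries (log2 4.38 ± 0.25). The site 5374 bp before the Ifng start rose from 0.179 ± 0.141 to 5.70 ± 0.505 CPM, and the site at the start from 0.663 ± 0.108 to 2.02 ± 0.201 CPM. Its RNA was at 0 in all 3 naive libraries and 21.3 ± 8.46 CPM in activated ones.

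Gzmb, which encodes the cytotoxic protease granzyme B, had a single tested site, over the start shown above (chr14:56262177-56262577). It was at 2.84, 2.22 and 1.46 CPM in naive and 44.0, 34.4 and 33.2 CPM in activated libraries, a log2 fold change of 4.07 ± 0.17. Gzmb RNA varied more between the activated libraries than its site did, at 1043, 347 and 306 CPM.

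Tbx21, the gene of T-bet, opened at most of its sites, with 9 of 12 sites opened at least 2-fold and 8 at least 8-fold. The Tbx21 site 2552 bp after the start (chr11:97112579-97112979) was at 0.0860, 0.126 and 0.0540 CPM in naive and 19.2, 19.7 and 20.7 CPM in activated libraries (log2 7.68 ± 0.21). Upstream sites 4228 and 9535 bp before the start rose by similar amounts, from 0.0963 ± 0.0605 to 15.0 ± 3.96 CPM and from 0.143 ± 0.0671 to 22.4 ± 1.33 CPM. The start itself was already accessible, at 5.48 ± 0.622 CPM, and reached 21.9 ± 0.789 CPM. Tbx21 RNA was 0.381 ± 0.222 and 128 ± 7.52 CPM.

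The genes that let T cells answer IL-12 had more sites opened than closed at least 2-fold, as did all sites (50.9% and 18.1%). Of Il12rb2, Il12rb1 and Stat4, only Il12rb1 had shares above those of all sites, for opened and for closed sites alike. Il12rb2, which encodes the IL-12 receptor chain that limits the response, had 16 sites, 8 opened and 1 closed at least 2-fold. The Il12rb2 site with the smallest p (chr6:67292024-67292424), which also lies within 10 kb of Serbp1, was at 0.430, 0.587 and 0.540 CPM in naive and 18.5, 16.0 and 14.6 CPM in activated libraries (log2 4.97 ± 0.18). At the Il12rb2 start the rise was from 9.61 ± 0.976 to 18.4 ± 3.08 CPM (1.91-fold), and with DESeq2 that change had an adjusted p of 0.0595. Il12rb1, the shared chain, had 6 of 10 sites opened and 3 closed at least 2-fold, and its leading site (chr8:70806560-70806960), which is also near Mast3, went from 10.6 ± 0.269 to 41.4 ± 0.337 CPM. The site over one end of the Il12rb1 span (chr8:70808209-70808609) rose from a mean of 6.97 to 29.7 CPM (4.25-fold). RNA of Il12rb2 rose from 1.20 ± 0.240 to 80.5 ± 29.5 CPM and that of Il12rb1 from 3.70 ± 0.662 to 237 ± 16.6 CPM.

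Stat4, the transcription factor activated by IL-12, had 23 sites, of which 10 opened and 3 closed at least 2-fold. Its leading site (chr1:52066325-52066725) was at 0.0860, 0.210 and 0.432 CPM in naive and 41.2, 38.3 and 38.2 CPM in activated libraries (log2 7.39 ± 0.18). The largest rise at Stat4 was at the site starting at 52052936, from 0.0823 ± 0.0690 to 17.3 ± 1.73 CPM. Other Stat4 sites lost accessibility, such as the site starting at 52022190, which fell from 19.9 ± 1.96 to 3.63 ± 1.72 CPM. The site 357 bp after a Stat4 start was at 23.4 ± 0.506 and 22.1 ± 1.20 CPM (adjusted p = 0.255, edgeR), and Stat4 RNA rose from 113 ± 13.4 CPM by 1.10 ± 0.09 on the log2 scale.

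The activation receptors gave some of the largest rises. Il2ra, which encodes the high-affinity IL-2 receptor chain CD25, had 17 sites, 10 opened and 3 closed at least 2-fold. Its leading site, inside the gene (chr2:11691086-11691486), held 1, 2 and 1 counts in the naive libraries (0.0430, 0.0839 and 0.0540 CPM) and 1370, 1210 and 1031 counts in the activated ones (54.1, 50.4 and 47.6 CPM), a log2 fold change of 9.58 ± 0.17. Sites 2685 and 4570 bp after the Il2ra start rose from 0.526 ± 0.0826 to 14.0 ± 0.807 CPM and, in that order, from 0.439 ± 0.174 to 28.8 ± 0.673 CPM. The site 10756 bp after the start was accessible in both states, at 68.5 ± 5.60 and 55.5 ± 2.76 CPM, and the site 15075 bp after it fell from 36.6 ± 2.73 to 9.95 ± 0.447 CPM. Large rises, a small fall of log2 -0.30 and a larger fall thus lay inside the same gene, and Il2ra RNA rose from 2.04 ± 0.640 to 829 ± 71.1 CPM.

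Ctla4, an inhibitory receptor, and Tnfrsf4, which encodes the costimulatory receptor OX40, opened most at sites upstream of their starts. The Ctla4 site 6207 bp before the start (chr1:60902618-60903018) was at 0.0860, 0.126 and 0.216 CPM in naive and 19.2, 22.9 and 20.1 CPM in activated libraries (log2 7.18 ± 0.21). At the Ctla4 start the levels were 28.9 ± 3.05 and 37.0 ± 3.37 CPM, a log2 change of 0.35 that was -0.15 with TMM. The Tnfrsf4 site 5185 bp before the start (chr4:156008310-156008710) was at 0.258, 0.377 and 0.270 CPM in naive and 52.8, 45.1 and 44.6 CPM in activated libraries (log2 7.26 ± 0.15), and its start rose from 10.8 ± 0.786 to 46.4 ± 2.38 CPM. RNA of Ctla4 rose from 2.53 ± 0.899 to 146 ± 6.91 CPM and that of Tnfrsf4 from 6.54 ± 0.653 to 569 ± 40.6 CPM.

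Transcription factors of the T cell receptor response showed mixed patterns. Irf4, a factor that pairs with BATF, had 6 of 10 sites opened and 1 closed at least 2-fold. The Irf4 site 9015 bp after its start (chr13:30758048-30758448) held 2, 1 and 1 counts in naive and 294, 237 and 208 counts in activated libraries (log2 7.29 ± 0.27), and Irf4 RNA rose from 6.72 ± 1.66 to 572 ± 64.5 CPM. Batf itself had 7 sites opened at least 2-fold and 1 closed, and the closed one was the start shown above (chr12:85686420-85686820), at 51.6, 47.4 and 54.0 CPM in naive and 16.3, 16.4 and 15.0 CPM in activated libraries (log2 -1.68 ± 0.07). Batf RNA was 28.7 ± 4.22 and 34.0 ± 2.40 CPM (adjusted p = 0.370, edgeR, and 0.0452 without naive replicate 3).

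Nfatc1, which encodes a calcium-dependent NFAT factor, and Bach2, a repressor of effector differentiation, had many sites in both directions. Nfatc1 had 11 opened and 9 closed at least 2-fold of 31, and its leading site (chr18:80597605-80598005) fell from 37.5 ± 3.30 to 2.91 ± 0.231 CPM while its RNA rose from 165 ± 11.8 to 231 ± 17.4 CPM. Bach2 had 44 opened and 18 closed of 99. Its leading site (chr4:32560269-32560669) was at 51.4, 46.7 and 46.3 CPM in naive and 6.60, 5.87 and 6.13 CPM in activated libraries (log2 -2.95 ± 0.08). Bach2 RNA was 127 ± 3.98 and 155 ± 26.3 CPM (adjusted p = 0.173, edgeR, and 0.00392 without activated replicate 1).

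On the cAMP axis, Crem and Pde3b moved in opposite directions in RNA. Crem, whose product is a relative of CREB, had 6 sites, 3 opened and 1 closed at least 2-fold. The Crem site with the smallest p (chr18:3292990-3293390) rose from 0.171 ± 0.0451 to 5.22 ± 0.552 CPM, and Crem RNA rose from 15.1 ± 3.85 to 61.1 ± 5.18 CPM. Pde3b, a phosphodiesterase that degrades cAMP, had 8 opened and 4 closed at least 2-fold of 17. Its leading site (chr7:114494054-114494454) was at 39.2, 38.5 and 39.4 CPM in naive and 4.42, 4.12 and 3.69 CPM in activated libraries (log2 -3.25 ± 0.09), and Pde3b RNA fell from 233 ± 33.9 to 108 ± 11.9 CPM.

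Among genes of the naive programme, S1pr1, Satb1, Lef1 and Tcf7 had the lowest medians over their sites, log2 -2.17, -1.65, -1.38 and -1.03. S1pr1, the receptor that lets T cells leave lymph nodes, had 6 sites, all closed, 5 of them at least 2-fold. Its leading site (chr3:115714780-115715180) fell from 75.1, 73.5 and 79.3 CPM to 27.2, 25.4 and 23.4 CPM, a site 5749 bp outside the span from 14.8 ± 1.45 to 0.936 ± 0.401 CPM, and its RNA from 667 ± 30.2 to 10.1 ± 2.25 CPM. Satb1, a chromatin organiser of T cells, had 19 of 32 sites closed and none opened at least 2-fold. The Satb1 site 11640 bp after the start (chr17:51800214-51800614) was at 29.7, 28.3 and 31.3 CPM in naive and 1.07, 1.21 and 1.01 CPM in activated libraries (log2 -4.75 ± 0.12), and the start shown above fell from 76.2 ± 2.71 to 18.4 ± 1.61 CPM.

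Lef1 and Tcf7 encode the HMG-box factors of the naive state. Lef1 had 26 of 44 sites closed and 3 opened at least 2-fold. The Lef1 site 1319 bp after a start (chr3:131157413-131157813) was at 123, 118 and 120 CPM in naive and 12.2, 9.45 and 9.92 CPM in activated libraries (log2 -3.52 ± 0.07). Tcf7 had 8 of 16 closed and 2 opened, and its leading site (chr11:52275302-52275702) fell from 55.8, 60.7 and 63.7 CPM to 5.92, 6.08 and 5.17 CPM (log2 -3.39 ± 0.08). The Tcf7 start shown above fell from 36.3 ± 3.66 to 14.7 ± 0.373 CPM. RNA of Lef1 fell from 497 ± 54.5 to 73.5 ± 1.97 CPM and RNA of Tcf7 from 1982 ± 125 to 259 ± 17.7 CPM.

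Klf2 and Foxo1, factors that hold T cells in quiescence, and Il7r, the receptor for the survival cytokine IL-7, closed at some sites and opened at others. Klf2 had 3 of each among 6 sites. Its start (chr8:72318746-72319146) was among the most accessible sites here, at 159, 164 and 164 CPM in naive and still 63.4, 65.7 and 64.3 CPM in activated libraries, while Klf2 RNA fell from 542 ± 63.9 to 6.90 ± 0.955 CPM. The Klf2 sites 3462 and 12183 bp after the start rose from 18.1 ± 1.44 to 46.1 ± 2.64 CPM and, in that order, from 5.58 ± 0.739 to 29.7 ± 1.93 CPM. Foxo1 had 10 of 22 sites closed and 1 opened at least 2-fold, with its leading site (chr3:52343514-52343914) falling from 23.2 ± 1.91 to 1.14 ± 0.309 CPM. Il7r had 5 of 13 closed and 4 opened. The Il7r site 3666 bp before the start (chr15:9533342-9533742) was at 63.5, 61.1 and 60.1 CPM in naive and 9.28, 8.08 and 8.49 CPM in activated libraries (log2 -2.84 ± 0.06). Il7r RNA fell from 701 ± 59.9 to 13.4 ± 3.62 CPM, whereas the site over its start fell only from 33.5 ± 1.40 to 26.2 ± 3.44 CPM.

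Ccr7, the receptor that guides T cells into lymph nodes, had 1 site opened and 3 closed at least 2-fold of 8. The opened Ccr7 site, 5629 bp outside the span (chr11:99160706-99161106), was at 0.688, 0.671 and 0.702 CPM in naive and 62.3, 58.2 and 60.1 CPM in activated libraries (log2 6.44 ± 0.10), and Ccr7 RNA rose from 687 ± 38.7 to 1399 ± 58.4 CPM. Cd4, the coreceptor gene used to select the cells, had 4 opened and 2 closed at least 2-fold of 11, and its leading site (chr6:124885164-124885564) fell from 88.5 ± 5.15 to 26.7 ± 0.0545 CPM.

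The starts of these genes moved in both directions. Of the 26 genes, 16 had a RefSeq start with a tested site in the window from 250 bases before to 50 bases after it, taking the site with the smallest p where a gene had several. Sites there opened at least 2-fold at 7 genes, Gzmb, Tnfrsf4, Tbx21, Irf4, Ifng, Il2 and Il2ra, and closed at least 2-fold at 4, Satb1, Batf, Klf2 and Tcf7, while 18.9% of the 11050 genes with a site in the window had it opened and 4.66% closed at least 2-fold. The closed starts thus held Batf, an AP-1 family factor, beside factors of the naive state. The remaining 5 changed by less than 2-fold: Il12rb2 (log2 0.93), Ctla4 (0.35, -0.15 with TMM), Il7r (-0.35), Lef1 (-0.64) and Foxo1 (-0.73).

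**Figure D4:**
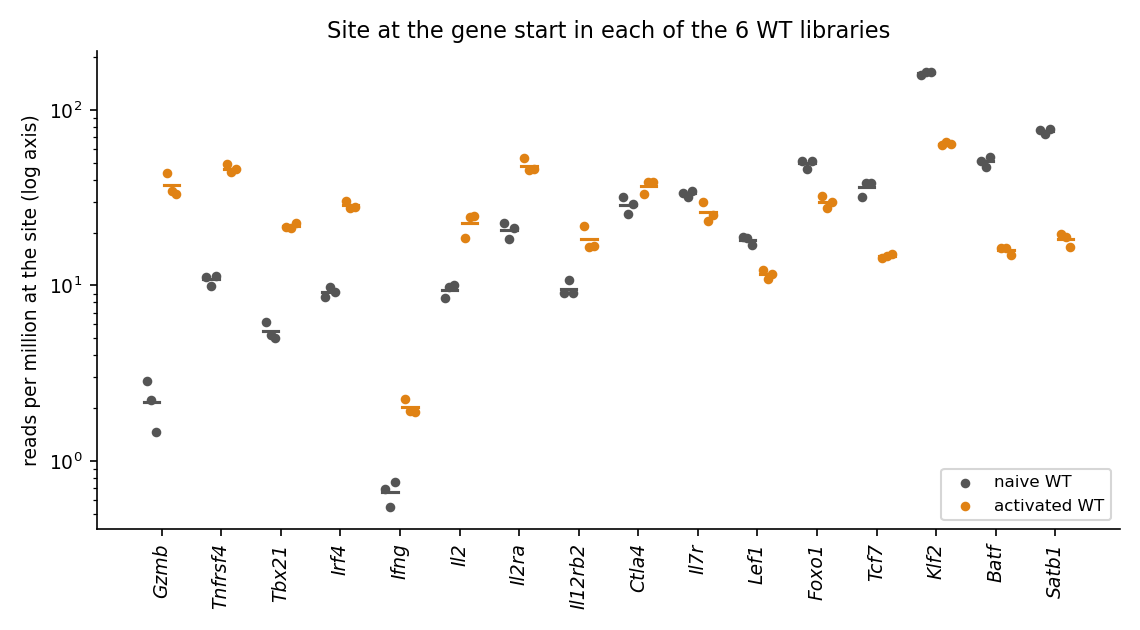
Accessibility in CPM (log axis) at the site over the start of 16 genes in each naive (grey) and activated (orange) WT library, with bars at the means of 3 libraries; genes are ordered from the largest rise to the largest fall. Naive and activated points are apart at each gene, from Gzmb (2.17 to 37.2 CPM) to Satb1 (76.2 to 18.4 CPM).

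Across all genes, accessibility at the start and RNA moved mostly the same way where the start changed strongly. Of 11050 genes with a site in the window, 2091 had it opened at least 2-fold, 516 of these passed the filter on low RNA counts, and RNA was higher for 374 (72.5%) and lower for 94 (18.2%). A gene silent in naive cells could pass that filter only through its activated level. Of 515 genes with a site closed at least 2-fold, 250 passed the filter, of which 216 (86.4%) had lower and 12 (4.80%) higher RNA. Where the site did neither, RNA was higher for 42.3% and lower for 38.5% of 6873 genes, close to the background. Across 7639 genes Pearson's r between both log2 fold changes was 0.50 and Spearman's rho 0.37, as a description over genes, which are not independent and share the libraries. Sites around the gene separated RNA in the same way: 19 of 22 tested genes with 5 or more sites closed and none opened at least 2-fold had lower RNA and 1 higher, while 403 of 617 with 5 or more opened and none closed had higher and 118 lower RNA.

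Short motifs were counted on both strands in these windows of 300 bases, with all 27025 genes of the promoter table as reference, 1 window each. The AP-1 letters TGANTCA were in 11.9% of opened, 6.41% of closed and 4.16% of the other windows with a site, against 7.91% of all windows. RUNX letters TGTGGTT were in 5.12% of opened and 10.5% of closed windows (5.32% of all), and FOX letters TGTTTAC in 2.30% and 7.57% (3.58% of all). The E-box CAGGTG was in 21.3% and 27.4% (20.0% of all). NFAT letters GGAAAA were in 19.2% of opened and 22.5% of closed windows and in 23.6% of all. Windows whose site changed by less than 2-fold held ETS letters CCGGAAG in 21.8% and SP letters GGGCGG in 69.8%, against 9.08% and 35.6% of all windows. The cAMP response element TGACGTCA was in 1.72% of opened, 3.30% of closed and 3.80% of the other windows with a site, against 1.78% of all windows. The groups also differed in base composition, with a mean GC content of 59.2% in opened, 54.6% in closed, 62.2% in the other and 53.6% in all windows, and the part of base composition in these shares was not tested.

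Beyond the 26 genes, the sites with the smallest p of each list showed rises from near 0 at effector and signalling genes. In the cytokine list, a site inside Il10, an anti-inflammatory cytokine gene, rose from 0.239 ± 0.127 to 33.6 ± 1.92 CPM (chr1:131022591, log2 7.17 ± 0.17), and a site near Ccl5, a chemokine gene, from 0.405 ± 0.0755 to 28.0 ± 3.39 CPM. In the Th1 and effector list, a site by Bhlhe40, a factor of cytokine production, rose from 8.92 ± 0.515 to 96.9 ± 4.04 CPM and the Nkg7 start from 0.445 ± 0.0358 to 30.7 ± 1.11 CPM, whereas a site near Prf1, the perforin gene, fell from 45.5 ± 3.04 to 0.719 ± 0.263 CPM. Among regulators of other T helper lineages, a site inside Rora rose from 0.186 ± 0.0518 to 48.0 ± 0.193 CPM and a site near Cxcr5, the follicular homing receptor, fell from 102 ± 9.03 to 9.45 ± 1.43 CPM. Cish, a STAT5 target that dampens cytokine signals, gained a site from 0.364 ± 0.154 to 64.9 ± 5.11 CPM, while a site at Stat5b fell from 84.8 ± 1.42 to 17.3 ± 0.664 CPM. Il1rl1, the receptor for IL-33, rose from 0.175 ± 0.0823 to 39.4 ± 0.247 CPM at a site inside the gene.

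Signalling and metabolic genes followed, with both directions represented. Zap70, the kinase next to the T cell receptor, gained a site (0.474 ± 0.0914 to 45.3 ± 1.18 CPM), and so did Ptpn22, a phosphatase that restrains it (0.110 ± 0.0610 to 26.7 ± 0.603 CPM). Sites inside Tnfaip3, Nfkb1 and Nfatc2 rose from 3.12, 1.41 and 0.367 CPM to 62.3, 40.4 and 27.9 CPM. Among cAMP genes, a site inside the phosphodiesterase gene Pde4b rose from 0.700 ± 0.0549 to 49.1 ± 0.713 CPM and a site inside Pde4d fell from 67.8 ± 0.832 to 4.65 ± 0.623 CPM, and a site inside the kinase gene Sik3 rose from 3.29 ± 0.412 to 90.8 ± 0.883 CPM. The costimulatory receptor gene Cd28 lost a site inside the gene (55.7 ± 0.926 to 4.14 ± 0.298 CPM). Hk2, a hexokinase of glycolysis, gained a site (0.869 ± 0.198 to 52.2 ± 8.24 CPM), and Srebf2, the master factor of cholesterol synthesis, lost one inside the gene (33.1 ± 1.64 to 2.82 ± 0.301 CPM). The leading sites of the cell cycle list all fell, at E2f2 (55.7 ± 6.43 to 1.54 ± 0.292 CPM), Ccne1 and Cdt1.

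Among lists of other cell types, a site inside Ebf1, a B cell factor, rose from 0.132 ± 0.121 to 19.1 ± 1.07 CPM, while Ebf1 RNA was at 0.0403 ± 0.0698 and 0.0620 ± 0.107 CPM. A site near Cd79b, a chain of the B cell receptor, rose from 0.371 ± 0.104 to 15.7 ± 0.554 CPM, with RNA at 0.913 ± 0.572 and 1.98 ± 0.706 CPM. Sites near Itgam and Spi1 fell from 16.0 ± 0.195 to 1.23 ± 0.159 CPM and from 14.9 ± 0.423 to 1.40 ± 0.119 CPM. Spi1 RNA was 0.0591 ± 0.102 and 0.0298 ± 0.0515 CPM.

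Some of the sites with the highest fitted rises had no naive counts at all. The first 10 by fitted fold among sites with at least 5 CPM in activated cells held 0 counts in the 3 naive libraries and were at least 186-fold to 457-fold higher in activated ones, taking 3 counts over the naive group as the floor. These are lower bounds, so the sites are not ranked against each other or against sites with a few naive counts, such as the leading Il2ra site, which rose 763-fold. One was near the unnamed gene model Gm40925 (chr13:41671302-41671702), at 20.3, 19.9 and 22.5 CPM in activated libraries, and another inside or near Atg13, an autophagy gene (chr2:91696186-91696586), at 15.9, 18.3 and 17.1 CPM. Others lay at or within 10 kb of Tmem9 and Igfn1, Osr2, Pmm1 and Csdc2, Lyst, Tnrc6a, Cap2, Dph1 and Tnr. The first of the ranked falls went from 6.88, 6.79 and 7.13 CPM to 0.0395, 0 and 0.0922 CPM at or near Qpct (chr17:79043655-79044055). A site within 10 kb of Ifngr1, the interferon gamma receptor gene, and of Il22ra2 (chr10:19619750-19620150) fell from 15.8, 15.0 and 16.8 CPM to 0.0790, 0.125 and 0.277 CPM (log2 -6.63 ± 0.23), and a site at Wwox (chr8:114869224-114869624) from 29.1, 30.8 and 27.6 CPM to 0.237, 0.333 and 0.323 CPM (log2 -6.60 ± 0.15).

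Opened and closed sites gathered at some long genes. Of 17209 protein-coding genes with a tested site, 14084 (81.8%) had a site opened at least 2-fold, 6484 (37.7%) a site closed at least 2-fold and 5411 (31.4%) both. The genes with the most opened sites were Inpp4b (68 of 113), Foxp1 (63 of 138), Atxn1 (59 of 72), Hivep3 (48 of 55) and Kcnq5 (47 of 48). RNA rose for Kcnq5, a potassium channel gene (1.09 ± 0.211 to 35.1 ± 3.17 CPM), Hivep3 (15.1 ± 3.22 to 229 ± 34.4 CPM) and Atxn1 (10.1 ± 1.02 to 79.1 ± 2.64 CPM), and fell for Inpp4b, a lipid phosphatase gene (211 ± 7.42 to 94.1 ± 4.71 CPM) and for Foxp1, a factor of T cell quiescence (341 ± 0.958 to 262 ± 26.4 CPM), so many opened sites were found beside RNA changes of either direction. The most closed sites were at Wwox (40 of 70), Sgms1 (38 of 74), Foxp1 (30 of 138), Prkce (30 of 56) and Akap13 (26 of 74). RNA of Sgms1 fell from 77.4 ± 3.60 to 13.5 ± 1.69 CPM and that of Akap13, an anchor protein of PKA, from 769 ± 126 to 140 ± 4.82 CPM, while Wwox RNA was 5.04 ± 1.16 and 7.98 ± 2.60 CPM (adjusted p = 0.0722, edgeR; 0.0345 without activated replicate 3 and 0.0447 without activated replicate 2).

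The WT response was largely shared with KO cells. In a fit of all 12 libraries, 95.3% of sites opened at least 2-fold in WT were also opened at least 2-fold in KO and 96.6% of those of KO in WT, and for closed sites the shares were 94.0% and 91.8%. The interaction of genotype and activation, tested with edgeR at 110797 sites, found the WT response higher at 5705 (5.15%) and lower at 2132 (1.92%), with a median difference of 0.05. Higher means a WT minus KO difference above 0, which also arises where accessibility fell more in KO. Leaving out 1 library moved the higher count by over 1.5 times without naive KO replicate 3 (3500). It moved the lower count as far without activated KO replicate 2 (1011), activated KO replicate 3 (1073), naive KO replicate 3 (1087), naive WT replicate 1 (1326), activated WT replicate 2 (1371) and activated WT replicate 1 (1400). With TMM the counts were 5661 and 544, so the share of higher differences among those called was 72.8% with library-size scaling and 91.2% with TMM.

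Of the 448 sites of the 26 genes, 64 (14.3%) had a higher and 8 (1.79%) a lower WT response, against the 5.15% and 1.92% of all sites. At least 1 such site was found at 21 of the genes and at 30.8% of all protein-coding genes with a site. Among genes with 5 or more sites it was found at 19 of 24 and at 44.9% of 8304. The 26 genes were chosen with earlier results of these data known, so this excess is not independent of the choice. Their sites also had higher levels, with medians of 4.39 CPM in naive and 6.14 CPM in activated WT cells, against 1.47 and 3.35 CPM over all sites. The part of either in the excess was not tested. At the Il2 site 2513 bp before the start the log2 response was 6.48 in WT and 5.30 in KO (difference 1.18 ± 0.24, adjusted p = 0.00421, edgeR). Mean levels there differed in both states, at 0.541 CPM in naive WT and 0.952 CPM in naive KO. After activation they were 49.3 CPM in WT and 37.8 CPM in KO. At the Gzmb start the log2 response was 4.07 and 2.75 (difference 1.32 ± 0.33, adjusted p = 0.0230, edgeR). Activated KO libraries there were at 9.91, 8.29 and 8.42 CPM, all below the activated WT ones. That Gzmb difference had an adjusted p of 0.0981, 0.0987 and 0.0573 without naive KO replicate 1, naive KO replicate 2 or naive WT replicate 2. At the opened Ccr7 site the response was 6.44 in WT and 4.86 in KO (adjusted p = 0.000194, edgeR). At the Tbx21 site 2552 bp after the start it was 7.68 and 7.67 (adjusted p = 0.991, edgeR). Equal responses there did not mean equal levels, as activated means were 19.9 CPM in WT and 29.4 CPM in KO. Naive means were 0.0886 CPM in WT, from 2, 3 and 1 counts, and 0.139 CPM in KO. Among the listed groups, 40 of 396 sites of the cAMP and CREB axis had a higher and 7 a lower WT response, and 64 and 13 of 550 sites of naive and quiescence genes. Higher responses were more frequent than on the cAMP and CREB axis among homing and chemokine receptors (26 and 2 of 158), Th1 and effector genes (27 and 3 of 184), activation and costimulatory receptors (27 and 1 of 191) and T cell receptor signalling (48 and 5 of 444). They were rarer among cell cycle (6 and 8 of 137) and ribosomal protein genes (0 and 8 of 60).

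**Figure D5:**
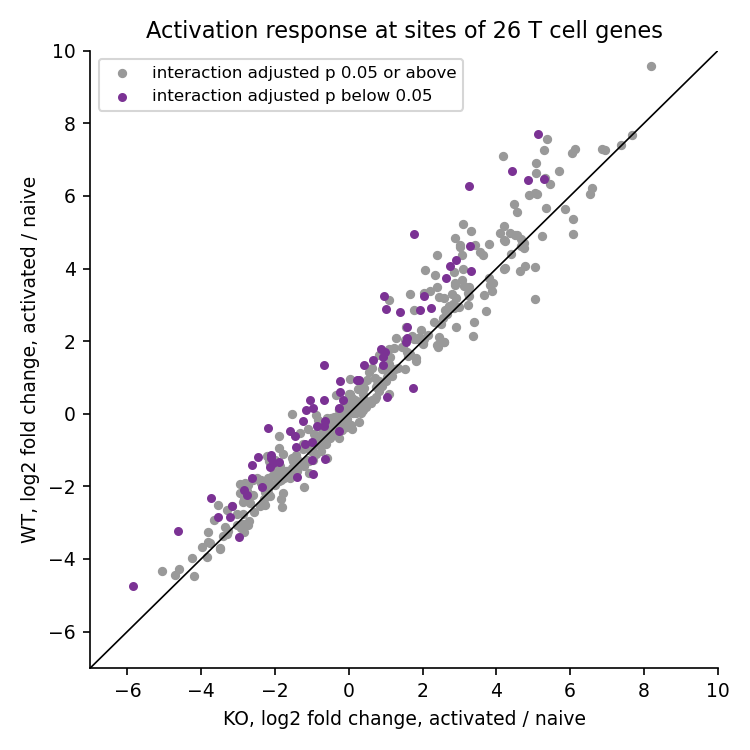
Log2 fold change on activation in WT (y) against KO (x) at the tested sites within 10 kb of the 26 genes, from the fit of 12 libraries; purple points passed the interaction test at an adjusted p under 0.05 and the line marks equal responses. Points follow the line, and most purple points lie above it.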

How the data were processed

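The authors deposited counts per site and library for ATAC-seq, in a table for each state, and counts per gene for RNA-seq, all whole numbers without scaling. The mm10 build is given by the submitters' processing notes; the aligner, peak caller and counting tool are not given in the sources used here. Sites kept the deposited coordinates, of which 110684 of 110808 have an end minus start of 400. The authors' deposited group means and fold, on a log2 scale per the file headers, and their p-values were not used.

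The members and gene lists were chosen with earlier results of these data known. Counts were tested with edgeR 4.0.16 in R 4.3.3 (filterByExpr, robust quasi-likelihood fit, library-size scaling for ATAC, TMM for RNA, Benjamini-Hochberg at 0.05). The 6 WT ATAC libraries had a fit of their own, the interaction a fit of 12, and WT RNA a fit of 6; 674 ATAC sites fell below the filter. The tests were checked on simulated counts. RNA rows without a symbol (1314, holding 0.128% to 0.159% of counts) were left out. A group at 0 was given a floor of 3 counts over the group, which covers counting error only.

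Sites were tied to gene spans (RefSeq, GRCm38.p6) extended by 10 kb and to gene starts of a promoter table of 27025 genes, which holds no chromosome 18. Named sites were, for each of the 26 genes, that with the smallest p; the 10 largest rises and falls among called sites whose groups did not overlap and whose higher mean reached 5 CPM, off chromosomes 18, X and Y; 3 genes per list by smallest p; the 5 genes with most opened and most closed sites, leaving out gene models and receptor segments; and the 5 interaction sites with the smallest p in each direction. Other sites of the 26 genes were chosen after their values were seen. Alternatives were TMM, RLE and upper-quartile scaling, other filters, DESeq2 1.42.0, limma-voom (limma 3.58.1), FDR 0.01, the replicate number as a block, and leaving out each library. The values of some named genes are not reported here.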

Additional observations from a re-analysis of the deposited data

Results flagged for a closer look

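The sites below stand out because the response to activation differed between WT and KO libraries by the interaction test (edgeR, adjusted p under 0.05). They are the 5 sites with the smallest p in each direction and, chosen after their values were seen, the site with the smallest interaction p at each further gene named. Values are the WT minus the KO log2 response with SE, n = 3 libraries per group of genotype and state.

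At the cytokine, effector and IL-12 genes the difference was 1.18 ± 0.24 at Il2, 1.32 ± 0.33 at Gzmb, 1.32 ± 0.28 at Il12rb2 and 0.43 ± 0.10 at Il12rb1. At Stat4 it was -0.70 ± 0.09 (chr1:52100516-52100916), a site where accessibility fell from 50.6 to 15.9 CPM in WT and from 58.2 to 29.7 CPM in KO, whereas 4 other Stat4 sites had a higher WT response, by 0.83 ± 0.18 to 3.17 ± 0.82. Both directions were also called among the sites of Ccr7 (6 higher and 1 lower), Tcf7 (2 and 1), Lef1 (2 and 2), Bach2 (15 and 2) and Cd4 (3 and 1). For activation receptors the difference was 0.93 ± 0.27 at Il2ra, 0.85 ± 0.21 at Ctla4 and 0.55 ± 0.11 near Tnfrsf4. The site near Tnfrsf4 lies 9461 bp outside its span and 48 bp before the start of Tnfrsf18. For transcription factors the difference was 0.42 ± 0.09 at Irf4, 0.44 ± 0.11 at Nfatc1 and 1.15 ± 0.14 at Bach2. At Pde3b it was 0.97 ± 0.09, with the larger fall in KO, as also at the Ctla4 and Nfatc1 sites. At the site near Tnfrsf4 and at the Irf4 and Bach2 sites, accessibility rose in WT and fell in KO with library-size scaling. With TMM the log2 change in WT was -0.11 near Tnfrsf4, -0.34 at Irf4 and 0.42 at Bach2. At the Il2ra site accessibility rose in both genotypes.

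Among naive genes the difference was 1.44 ± 0.11 at Ccr7, 0.82 ± 0.14 near Klf2, 0.68 ± 0.16 at Tcf7, 1.21 ± 0.16 at Lef1, 1.27 ± 0.15 at Satb1, 0.82 ± 0.22 at Il7r and 1.12 ± 0.22 at Foxo1. At the Lef1 site accessibility fell more in KO (log2 -2.62) than in WT (-1.41). At the Ccr7, Satb1 and Foxo1 sites it fell in KO (-1.06, -1.16 and -0.98) and changed by 0.38, 0.11 and 0.15 in WT. At the Klf2, Tcf7 and Il7r sites it rose more in WT. At Cd4 (chr6:124883400-124883800) the difference of 2.26 ± 0.24 went with a naive level of 47.0 CPM in KO against 1.25 CPM in WT, so the groups differed before activation.

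The sites with the smallest p for a higher WT response lay at chr1:183987701-183988101 with no gene within 10 kb (1.91 ± 0.09), at Lrrc8d (2.49 ± 0.14), near Trim25 (2.55 ± 0.14), at chr16:51675129-51675529 (1.74 ± 0.11) and at Prkch, a protein kinase C gene (1.86 ± 0.11). At each of them accessibility fell more in KO than in WT. In that order, the log2 response was -4.03, -2.50, -3.50, -3.03 and -2.56 in KO. In WT it was -2.11, -0.01, -0.96, -1.29 and -0.69. At the Lrrc8d site WT libraries were at 28.2 and 28.1 CPM before and after activation and KO libraries at 22.0 and 3.88 CPM. For a lower WT response they lay by E130018N17Rik (-0.51 ± 0.06), near Vps37b (-0.72 ± 0.09), at the Stat4 site above, at chr12:112449128-112449528 (-0.87 ± 0.11) and near Ptpn14 (-1.17 ± 0.15), where WT fell from 11.2 to 4.84 CPM and KO libraries were at 12.2 and 11.8 CPM. No explanation of these differences was tested.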

How the results depend on the processing

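Counts of opened and closed sites kept within 1.5 times under every alternative run except a filter of at least 5 CPM in 3 libraries, under which fewer sites were tested (48735): 22542 opened and 20806 closed, 16964 and 10980 of them at least 2-fold, and 11 instead of 4 lists had a median above that of all sites. Without each library in turn, 63782 to 65994 sites opened and 30702 to 31890 closed, 55645 to 56800 and 19725 to 20115 at least 2-fold, and 3 to 4 lists stood above. Interaction counts moved more, to 544, 513 and 582 lower WT responses with TMM, RLE and DESeq2, and, leaving out libraries, to 3500 to 7134 higher (3500 without naive KO replicate 3) and 1011 to 2349 lower (1011 without activated KO replicate 2); the cause was not tested. RNA counts were 4665 to 4875 higher and 4394 to 4726 lower without each library.

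Near gene starts the median was -0.13 within 500 bp, 0.04 within 2 kb, -0.56 with TMM, -0.68 with RLE and DESeq2, -0.38 with upper-quartile scaling, -0.20 with the 5 CPM filter and -0.08 to -0.04 without each library. Elsewhere it was 0.88, 0.77, 0.77, 1.07 and 0.30 under TMM, RLE, DESeq2, upper quartile and the 5 CPM filter, and 1.35 to 1.41 without each library. The scaling, filter and leave-out values of these medians and of the lists were added after seeing the data. Medians changed sign for myeloid markers (-0.53 inside spans only, -0.45 TMM, -0.57 RLE and DESeq2, -0.27 upper quartile, -1.81 with the 5 CPM filter), interleukin receptor chains (-0.33, -0.45, -0.45 and -0.16 with TMM, RLE, DESeq2 and upper quartile), ribosomal protein genes (-0.24 inside spans, -0.36, -0.47, -0.47, -0.18 and, with the filter, -0.12), IL-2 and STAT5 targets (-0.08 with RLE and DESeq2) and erythroid markers (-0.06 with the filter). The Ctla4 start was at -0.15 with TMM and -0.27 with RLE and DESeq2. Of 29 interaction sites named, 5 lost the call under 1 or more alternatives, among them Il2ra, Gzmb, Ctla4, Nfatc1 and Il7r.

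With the replicate block, 65437 sites opened and 31913 closed, the interaction found 6786 higher and 2699 lower, and RNA 4858 higher and 4633 lower. Deviations of same-numbered naive and activated libraries correlated at 0.18, 0.06 and 0.11, each the highest for its number, against -0.13 to 0.05 for other pairs. These correlations are low, and whether libraries of the same number were paired was not settled. Rises from under 3 counts per library rest on few naive counts, which limits their size at this depth.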
